A study of Mus musculus with 4 samples.

Results

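The RNAs described here are the structured noncoding RNAs of several ribonucleoprotein machines: the U11 and U12 snRNAs (Rnu11 and Rnu12), the telomerase RNA (Terc), the 7SK RNA (Rn7sk), and the RNA subunits of RNase P (Rpph1) and RNase MRP (Rmrp). They were chosen by name, with the difference between the treated and the control libraries known. Rnu11 and Terc lead the set because they were among the genes furthest apart between the groups, so their differences are given as a description, with no test. Of the 6 symbols, 5 matched a row of the deposited table of 25170 genes, and 4 had measured values in it. Those 4 were all among the 9741 genes whose mean reached 1 FPKM and which entered the fit (FPKM are fragment counts divided by a gene's length and by the size of the library).

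None of these RNAs encodes a protein. U11 and U12 recognise the 5′ splice site and the branch point of the rare class of introns that the minor spliceosome removes. Terc is the template from which telomerase adds telomere repeats, and its 3′ part folds like an H/ACA snoRNA and binds the dyskerin proteins. RNase P trims the 5′ leader of tRNA precursors, RNase MRP acts on precursor ribosomal RNA, and 7SK holds the transcription kinase P-TEFb inactive. A ribosome profiling library is made from nuclease-resistant RNA pieces of a lysate, and reads on such RNAs are not a measure of translation.

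The treated libraries came from E14, a wild-type mouse embryonic stem cell line (inner cell mass), kept for 3 passages in 1 µM of a compound given only as PD (2 libraries). The control libraries came from the same cells kept for 3 passages in DMSO, the solvent (2 libraries). Cells of both groups grew on gelatin in medium with serum and leukemia inhibitory factor. The comparison addresses, per the series' design text, what the kinase Mek does in gene regulation after transcription. The labels do not say that replicates were separate cultures. P-values then reflect only how far these libraries spread, and that spread may be technical.

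Depth differed with treatment. The PD libraries had 0.464 and 0.201 of the depth of DMSO replicate 1, and DMSO replicate 2 had 1.42 times that depth, as read from the size of 1 read in the FPKM values. The scaling totals that go with these steps were 2175540 and 944677 reads in PD, against 4690890 and 6644600 reads in DMSO. All 8 embryonic stem cell markers examined were above 0 in every library, with a summed level of 2212 and 3836 FPKM in PD and 2260 and 2228 FPKM in DMSO. Fibroblast or feeder markers summed to 2.67 and 3.44 FPKM in PD and to 1.95 and 2.33 FPKM in DMSO, with Lum, Postn and Twist2 at 0 throughout. Trophoblast markers summed to 4.86 and 11.4 FPKM in PD and 5.66 and 11.3 FPKM in DMSO with Cdx2 at 0, and primitive endoderm markers stayed under 1 FPKM in each library with Gata6 at 0.

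The U11 snRNA had a higher level among the protected fragments of PD-treated cells. Rnu11 (snRNA, chr4:132270079-132270186, 108 nt, mm10) had 19832 and 16373 FPKM in the PD libraries, against 3066 and 3308 FPKM in the DMSO libraries. Both PD libraries lay above both DMSO libraries, and the replicates of each group were close together. The means were 18102 ± 2446 FPKM in PD and 3187 ± 171 FPKM in DMSO (SD, n = 2 each), a ratio of 5.68. On the log2(FPKM + 1) scale the difference, PD minus DMSO, was 2.50 with a standard error of 0.35.

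The confidence bounds that the authors' table gives for U11 describe the uncertainty within each library. They ran between 10799 and 28865 FPKM in PD replicate 1 and between 8719 and 24026 FPKM in PD replicate 2. In DMSO they ran between 925 and 5206 FPKM in replicate 1 and between 1054 and 5561 FPKM in replicate 2. Each spanned a wide range of levels. They belong to the values that U11 was chosen by and add no support to its difference.

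These high FPKM stood for few reads. Rnu11 had 159 and 57 reads in the PD libraries and 53 and 81 reads in the DMSO libraries. PD replicate 2, the shallowest library, held about as many U11 reads as DMSO replicate 1, which was sequenced more deeply. Scaled by the library totals these were 73.1 and 60.3 RPM in PD, against 11.3 and 12.2 RPM in DMSO (reads per 1000000 reads of the scaling total). The exact Poisson 95% intervals were 135–186 and 43.2–73.9 reads in PD, and 39.7–69.3 and 64.3–101 reads in DMSO. Reads without molecular identifiers are not independent molecules, so such intervals cover counting error only. In lysates of many cells, fewer cells that hold an RNA and less of it per cell cannot be told apart.

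**Figure D1:**
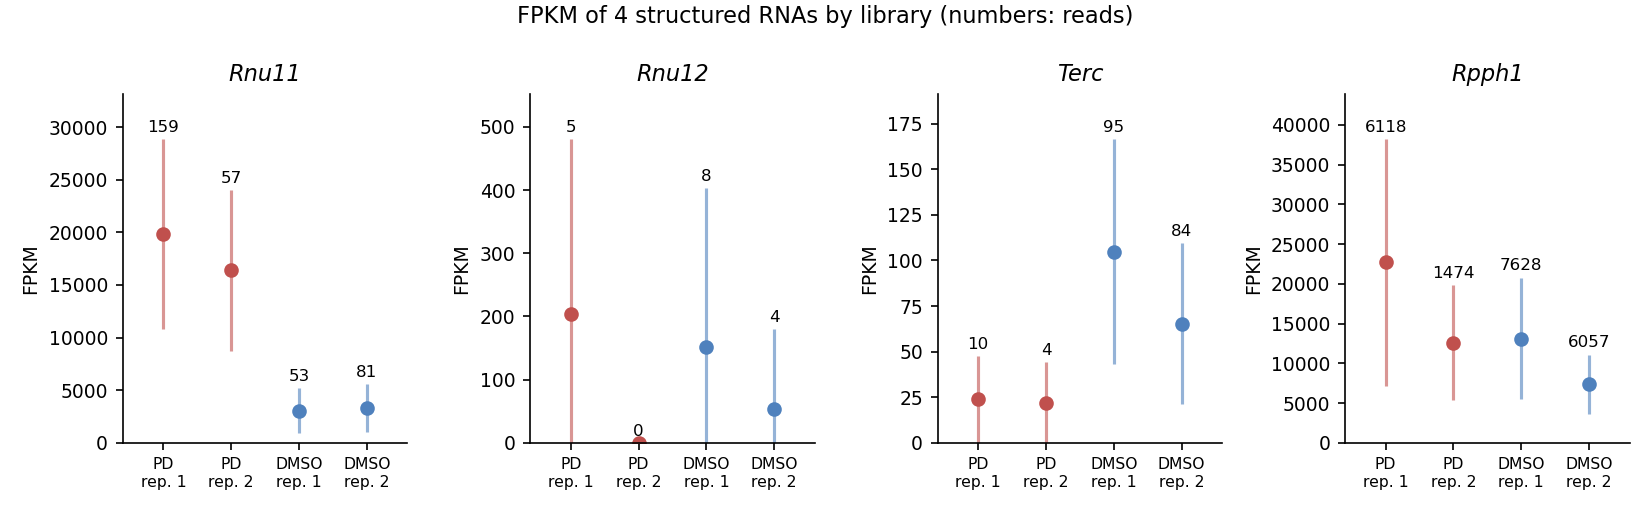
Deposited FPKM (linear axes from 0, a separate scale for each gene) of Rnu11, Rnu12, Terc and Rpph1 in the 2 PD and the 2 DMSO libraries. Points are the values, bars the authors' confidence bounds, and the number above each bar is the reads recovered: Rnu11 is higher in both PD libraries, Terc is lower in both, and Rnu12 and Rpph1 overlap between the groups.

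The U12 snRNA, the partner of U11 in the same di-snRNP, was close to the limit of counting. Rnu12 (snRNA, chr15:83149645-83149794, 150 nt) had 203 and 0 FPKM in the PD libraries and 151 and 53.2 FPKM in the DMSO libraries, and the groups overlapped. These were 5 and 0 reads in PD and 8 and 4 reads in DMSO. The 0 in PD replicate 2 allows a level of up to 281 FPKM (3 reads), which is above the value of every other library. The fitted log2 difference was -2.67 with a standard error of 2.65, and it turned to 1.17 without PD replicate 2. No difference in U12 was detectable at this depth.

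In every library U11 gave more reads than U12. U11 had 31.8 reads for each U12 read in PD replicate 1, against 6.63 and 20.3 in the DMSO replicates. In PD replicate 2 no ratio exists, since U12 had no read. These ratios rest on U12 counts of 8 reads or fewer, and their order was not tested.

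The telomerase RNA had a lower level among the protected fragments of PD-treated cells. Terc (telomerase RNA, chr3:96414437-96414833, 397 nt) had 23.8 and 21.9 FPKM in the PD libraries, against 105 and 65.4 FPKM in the DMSO libraries. Both PD libraries lay below both DMSO libraries, and the DMSO replicates were further apart than the PD replicates. The means were 22.8 ± 1.33 FPKM in PD and 85.1 ± 27.8 FPKM in DMSO (SD, n = 2 each), so the PD mean was 0.268 of the DMSO mean. The log2(FPKM + 1) difference was -1.81 with a standard error of 0.33.

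Counting error weighs on the PD side of Terc. The reads were 10 and 4 in PD, against 95 and 84 in DMSO, and the Poisson interval of the 4 reads in PD replicate 2 runs from 1.09 to 10.2. Scaled by depth, Terc had 4.60 and 4.23 RPM in PD, against 20.3 and 12.6 in DMSO. The authors' bounds were wide enough to overlap: they reached up to 47.5 FPKM in PD replicate 1 and 44.5 FPKM in PD replicate 2, and down to 43.0 FPKM in DMSO replicate 1 and 21.1 FPKM in DMSO replicate 2. Without PD replicate 1 or 2 the log2 difference was -1.87 or -1.76, and without DMSO replicate 1 or 2 it was -1.48 or -2.15. As the FPKM of the groups did not overlap, its sign could not turn in these runs.

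In PD the U11 reads outnumbered those of Terc, and in DMSO they did not. For each Terc read there were 15.9 and 14.3 U11 reads in the PD libraries, against 0.558 and 0.964 in the DMSO libraries. Per kilobase of RNA, U11 had 58.4 and 52.4 times the reads of Terc in PD, against 2.05 and 3.54 times in DMSO. A ratio of genes within a library does not depend on how deeply that library was sequenced. Since U11 and Terc were chosen for differences in opposite directions, that these ratios differ between the groups follows from the choice, and nothing is read from it.

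Levels in FPKM could not be set side by side across these genes, because 1 read was worth a very different amount in each. In DMSO replicate 1, a single read counted as 57.8 FPKM for Rnu11, 18.9 FPKM for Rnu12, 1.72 FPKM for Rpph1 and 1.10 FPKM for Terc. Terc is 3.68 times as long as Rnu11, but 1 Rnu11 read weighed as much as 52.4 Terc reads. The ratio of U11 to Terc in FPKM was 834 and 747 in PD and 29.3 and 50.6 in DMSO, far from the read ratios above.

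The weights followed an effective length, the number of positions at which a fragment of an assumed size fits into the RNA. With fragments drawn from a normal distribution of mean 200 nt and SD 80 nt, from 20 nt upward, the effective lengths were 3.69 nt for Rnu11 (3.41% of its length), 11.3 nt for Rnu12 (7.54%), 124 nt for Rpph1 (38.1%) and 193 nt for Terc (48.7%). These settings were found from the table after its values had been seen. They describe how the FPKM were scaled and are not a measured size of the protected fragments. Of 92 short RNA genes with at least 20 reads, 87 had a value of 1 read within 0.00175% of the inverse of this length, and the other 5 lay at 2 to 4 times it. By this measure 97.2% of 181 single-span short RNA genes above 0 came out at whole reads in all 4 libraries (within 0.02 reads plus 0.0025%), against 6.63% when the plain length was used. The weight is the same in every library up to its depth, so it cancels in a comparison of 1 gene between PD and DMSO.

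**Figure D2:**
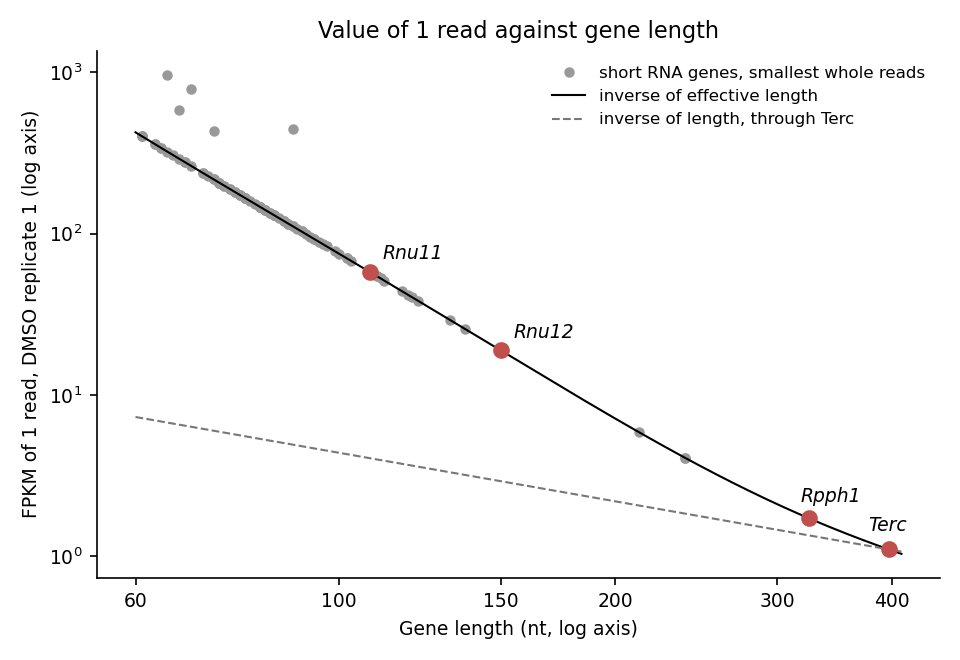
FPKM that 1 read counts for in DMSO replicate 1 against gene length, both on log axes, for 92 short RNA genes with at least 20 reads (grey points) and 4 named RNAs (red points). The solid line is the inverse of the effective length and the dashed line the inverse of the plain length, drawn through Terc; Rnu11 lies on the solid line, where 1 read counts 57.8 FPKM, and far above the dashed line.

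The RNase P RNA gave the most reads of the 4 and overlapped between the groups. Rpph1 (RNase P RNA, chr14:50807447-50807771, 325 nt) had 22688 and 12588 FPKM in the PD libraries, against 13119 and 7354 FPKM in the DMSO libraries. PD replicate 2 lay below DMSO replicate 1, and the PD replicates stood further apart than the group means. The means were 17638 ± 7142 FPKM in PD and 10237 ± 4076 FPKM in DMSO (SD, n = 2 each), and the log2 difference was 0.78 with a standard error of 0.54. It had 6118 and 1474 reads in PD and 7628 and 6057 reads in DMSO, or 2812 and 1560 RPM in PD against 1626 and 912 in DMSO. Counting error is therefore small here, and the spread between replicates sets the precision.

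The table also lists 3 genes named as relatives of Rpph1: Rprl1, Rprl2 and Rprl3. The sources used here do not give how reads that match several of them were shared, so the split between Rpph1 and these genes is uncertain. Rprl3 had 26889 and 7324 FPKM in PD and 8586 and 5398 FPKM in DMSO, which were 2934 and 347 reads in PD and 2020 and 1799 reads in DMSO. PD replicate 1 was far above the other 3 libraries. Rprl2 had 34 and 10 reads in PD and 38 and 13 reads in DMSO, and Rprl1 had 9 and 7 reads in PD and 14 and 13 reads in DMSO. Scaled by depth, Rprl2 had 15.6 and 10.6 RPM in PD, against 8.10 and 1.96 RPM in DMSO, and Rprl1 had 4.14 and 7.41 RPM in PD, against 2.98 and 1.96 RPM in DMSO. Both were thus higher in each PD library than in each DMSO library, with log2 differences of 1.67 for Rprl2 and 1.18 for Rprl1 that did not pass the limma test. Of all tested genes 17.5% were higher in this way, and nothing is read from these genes being so.

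Summed over the family, as the table lists its genes, there were 9095 and 1838 reads in PD and 9700 and 7882 reads in DMSO. In RPM they came to 4181 and 1946 in PD, against 2068 and 1186 in DMSO. The groups still overlapped, with PD replicate 2 below DMSO replicate 1. Rpph1 made up 67.3% and 80.2% of the family's reads in PD and 78.6% and 76.8% in DMSO.

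**Figure D3:**
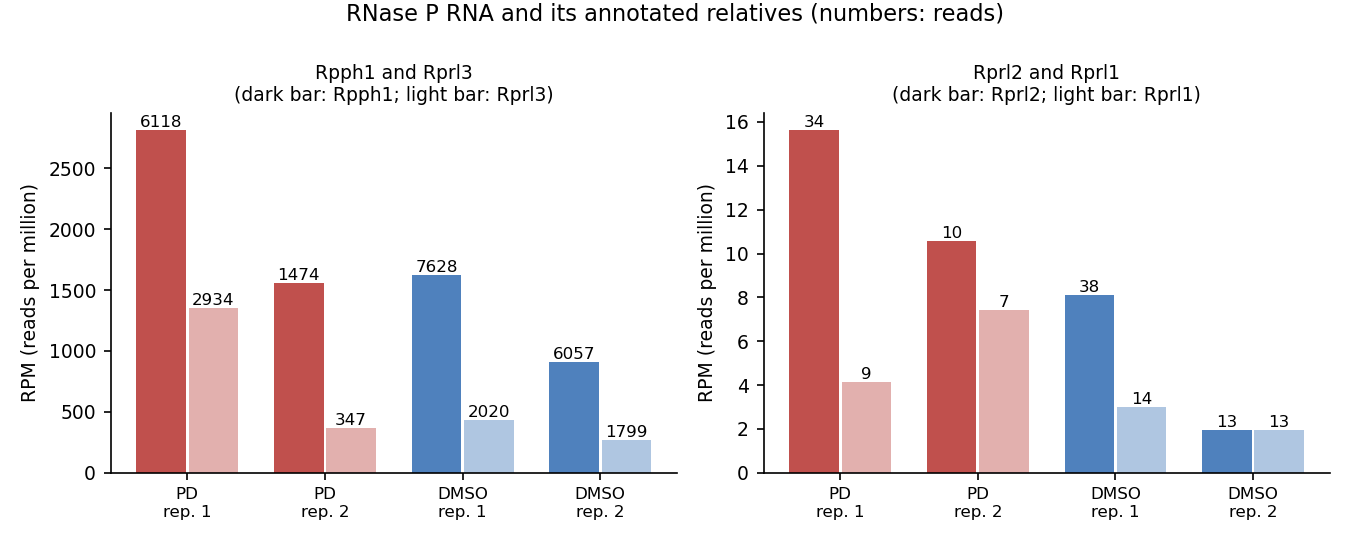
RPM (bars from 0, a separate scale for each panel) for Rpph1 and Rprl3 (left) and for Rprl2 and Rprl1 (right) in the 2 PD and the 2 DMSO libraries. Numbers above the bars are reads; Rpph1 has 2812 and 1560 RPM in PD and 1626 and 912 in DMSO, and PD replicate 2 lies below DMSO replicate 1.

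The remaining pair gave no level. Rmrp (RNase MRP RNA, chr4:43492785-43493059, 275 nt) is listed at 0 in all 4 libraries with the status HIDATA, which Cufflinks writes for a locus it skipped for holding too many fragments. It was the only gene of the table with a status other than OK, and its 0 is not a measured level. For Rn7sk (snRNA, 332 nt in RefSeq, chr9:78175302-78175633), no row matched by symbol, and it was not analysed here.

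Read against all genes, little can be drawn from the counts over the members. Of the 4 measured RNAs, 1 (Rnu11) had both PD libraries above the DMSO libraries, as had 17.5% of the 9741 genes tested, and 1 (Terc) had both below, as had 18.3%. The limma test on log2(FPKM + 1) called 0.0308% of tested genes higher in PD (3 genes) and 0.226% lower (22 genes) at an adjusted p of 0.05, while voom on recovered reads called 0 in either direction. These counts became 0 and 0 without either DMSO library, 18 and 30 without PD replicate 1, and 27 and 26 without PD replicate 2. Across all tested genes the median log2 difference was -0.02, and 561 genes had an unadjusted p under 0.05. Since the members were chosen with this contrast in view, nothing is read from their shares.

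Among 35 short structured RNA genes with at least 100 reads in all, Terc held place 6 from the lowest log2 difference, Rpph1 place 33 and Rnu11 place 35, the highest. Below Terc came Snora75 at -6.15, Snord118 at -4.62, Gm12238 at -3.03, Snora43 at -2.55 and Snora31 at -2.46. Next below Rnu11 were Rprl3 at 1.04 and Rpph1 at 0.78. The members were chosen with these differences known, so nothing is read from their places. The cut is on reads summed over all libraries, and the DMSO libraries were deeper, so it favours genes that are high in DMSO. Terc passed it on 95 and 84 reads in DMSO, against 10 and 4 in PD. Over all 118 tested short structured RNA genes the median log2 difference was -0.32. Their median standard error was 0.84, against 0.37 over all tested genes, so short RNAs were measured less precisely than other genes.

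The proteins that work with these RNAs showed no call. Limma called 0 of all 8863 tested protein-coding genes in either direction, so nothing particular to the partner lists is read from this. Of 12 tested genes of the minor spliceosome, limma called 0 after Benjamini-Hochberg adjustment over all genes, 1 had an unadjusted p under 0.05, and voom called 0 of 8. That gene was Snrnp25, a protein of the U11 snRNP, with 15.5 and 18.7 FPKM in PD against 43.5 and 36.8 FPKM in DMSO (log2 difference -1.18, limma adjusted p = 0.717). Both PD libraries lay below both DMSO libraries for Snrnp25, Scnm1 and Cript, and above them for Snrnp48, so 3 (25.0%) and 1 (8.33%) of the 12 genes. Over all tested genes these shares were 18.3% and 17.5%, and nothing particular to the list is read from the counts. Snrnp35, also of the U11 snRNP, had 15.2 and 15.7 FPKM in PD and 7.03 and 16.1 FPKM in DMSO, which overlap. Rnpc3, which bridges U11 and U12, had 5.27 and 10.5 FPKM in PD and 6.26 and 5.85 FPKM in DMSO, and Zcrb1 had 2.77 and 0 FPKM in PD and 2.25 and 3.85 FPKM in DMSO. The median log2 difference of the list was -0.20, beside -0.02 over all genes.

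Telomerase proteins likewise gave 0 calls among 11 tested genes by limma, 0 at an unadjusted p under 0.05 and 0 of 8 by voom, with a median log2 difference of -0.11. Tert, the reverse transcriptase that Terc templates, had 1.68 and 0.628 FPKM in PD and 1.59 and 1.92 FPKM in DMSO, and the groups overlapped. Dkc1, the dyskerin pseudouridine synthase that binds the H/ACA part of Terc, had 54.6 and 55.3 FPKM in PD and 51.5 and 49.0 FPKM in DMSO. Its log2 difference was 0.13 with a standard error of 0.23, and the limma adjusted p was 0.938. Naf1 and Shq1, which assemble H/ACA particles, had log2 differences of -0.40 and 0.32. The AAA+ ATPase gene Ruvbl1 had 61.6 and 47.5 FPKM in PD against 37.2 and 20.1 FPKM in DMSO (log2 difference 0.96, limma adjusted p = 0.837). Both PD libraries lay above both DMSO libraries for 3 of the 11 genes (27.3%), Dkc1, Shq1 and Ruvbl1, and below them for 0, beside 17.5% and 18.3% of all tested genes, and nothing particular to the list is read from these counts.

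RNase P and RNase MRP share most of their proteins. Of 11 tested genes limma called 0, with 0 at an unadjusted p under 0.05, and voom called 0 of 9, with a median log2 difference of -0.17. Pop7 had 3.94 and 5.45 FPKM in PD against 23.0 and 8.004 FPKM in DMSO (log2 difference -1.38, limma adjusted p = 0.837), on 5 and 3 reads in PD. Its partner in the same heterodimer, Rpp25, differed in the opposite direction, with 20.3 and 35.6 FPKM in PD against 14.9 and 12.5 FPKM in DMSO (log2 difference 0.93, limma adjusted p = 0.837). The other named subunits had log2 differences of -0.72 (Rpp14), 0.63 (Rpp38) and -0.33 (Pop1), with standard errors of 0.45, 0.47 and 0.35. Pop7, Rpp14 and Rpp40 were lower in both PD libraries than in both DMSO libraries, and Rpp25 was higher, so 3 (27.3%) and 1 (9.09%) of the 11 genes. Among all tested genes 18.3% were lower and 17.5% higher in this way, and no lowering of the list is read from these counts.

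For the 7SK particle the RNA was not analysed, but 7 of its protein genes were tested. By limma 0 were called, 0 had an unadjusted p under 0.05, and voom called 0 of 6. Larp7, which protects the 3′ end of 7SK, had 3.64 and 11.7 FPKM in PD and 5.40 and 11.1 FPKM in DMSO. Hexim1, the inhibitor of P-TEFb that 7SK carries, had 24.2 and 17.1 FPKM in PD and 22.7 and 12.9 FPKM in DMSO. Mepce, the capping enzyme of 7SK, had a log2 difference of -0.29, and Hexim2 and the cyclin gene Ccnt1 had -0.36 and -0.25, with groups that overlapped in each case. Only 1 gene of the list (14.3%), the kinase gene Cdk9, was higher in both PD libraries than in both DMSO libraries (log2 difference 0.15). Lower in both PD libraries were 0 genes, beside 17.5% higher and 18.3% lower over all tested genes. The median of the list was -0.20.

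**Figure D4:**
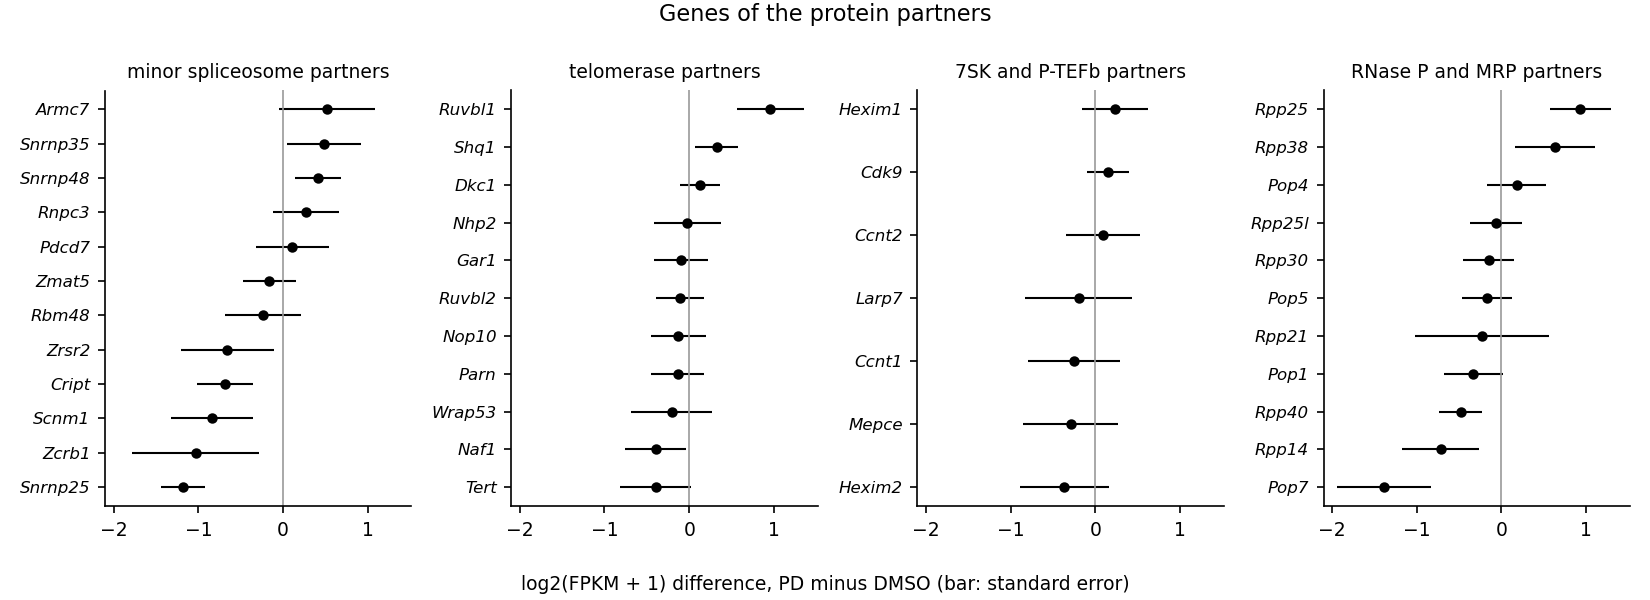
Log2(FPKM + 1) difference, PD minus DMSO, for the tested protein genes of the minor spliceosome, telomerase, 7SK with P-TEFb, and RNase P with RNase MRP. Points are the fitted differences and bars their standard errors (n = 2 libraries per group); Snrnp25 at -1.18 and Pop7 at -1.38 lie lowest, Ruvbl1 at 0.96 and Rpp25 at 0.93 highest, and limma called none of them.

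Of 28 further structured RNA genes listed for comparison, 11 matched a row and 8 were tested. Limma called 0 of these, 1 (Rprl1) had an unadjusted p under 0.05, and voom called 0 of 8. The 8 had a median log2 difference of 0.61. They include Rprl1, Rprl2 and Rprl3 as separate genes, at 1.18, 1.67 and 1.04, though how reads were shared among these is uncertain. The others were Rnu73b at 7.07, Vaultrc5 at 0.17, Rnu3a at -0.32, Snord13 at -4.23 and Snord118 at -4.62. The furthest apart were low in reads: Rnu73b, a C/D snoRNA, had 6 and 5 reads in PD and 0 and 12 in DMSO. In FPKM these were 6162 and 11826 in PD and 0 and 4035 in DMSO, so both PD libraries lay higher (log2 difference 7.07, standard error 4.07). Snord118, the U8 snoRNA of ribosomal RNA processing, had 0 and 9 reads in PD and 16 and 93 in DMSO, and Snord13, the U13 snoRNA, had 6 and 0 in PD and 8 and 10 in DMSO. In FPKM both overlapped between the groups, with 0 and 1149 in PD and 411.5 and 1688 in DMSO for Snord118, and 1039 and 0 in PD and 643 and 567 in DMSO for Snord13. Rnu3a, the U3 snoRNA, had 597 and 293 FPKM in PD and 365 and 745 FPKM in DMSO, which overlap.

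Genes next to the members were examined for reads that a neighbour could share. Poldip3 lies 266 nt from Rnu12, Parp2 lies 125 nt from Rpph1, and Ccdc107 lies 280 nt from Rmrp. Each overlapped between the groups, with log2 differences of 0.00 for Poldip3, 0.21 for Parp2 and -0.42 for Ccdc107, and limma adjusted p of 0.999, 0.928 and 0.906. Rnu11 and Terc stand alone, with the nearest annotated gene 2970 nt and 4296 nt away.

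The genes whose profiles over the 4 libraries were most like a member were found by Euclidean distance between mean-centred log2(FPKM + 1) values, among 5032 candidates. The distances describe 4 points in 2 groups, and no p is given. Rnu11 was closest to Catip (distance 0.255), which had 9.81 and 9.04 FPKM in PD and 1.14 and 0.963 FPKM in DMSO, and then to Olfr1461, Arhgef17, Gprc5a and Aard (up to 0.960). Terc was closest to Magohb (0.251), which had 4.95 and 3.80 FPKM in PD and 19.5 and 11.9 FPKM in DMSO, and then to Jade3, Rhebl1, Ginm1 and Bloc1s4 (up to 0.458). Rpph1 was closest to Acot8 (0.130), then Mesd, Tgoln2, Lmf1 and Nit1 (up to 0.217). The 5 nearest to Rnu12, namely Smim27, Tmsb15b1, Snhg20, Rpl38 and Sac3d1 (1.88 to 2.82), all had 0 in PD replicate 2, as Rnu12 had.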

How the data were processed

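Per the labels' protocols, cell lysates were treated with RNase I and the protected fragments passed through size-exclusion columns. After depletion of ribosomal RNA they entered a small RNA library kit. Per the submitters' processing notes, FastQC, Trimmomatic, Bowtie2, STAR and Cufflinks were used with the mm10 build; the sources used here give no versions and no rule for multi-mapping reads. The authors deposited 1 table of FPKM with confidence bounds and a status for each value, per the file headers; no further normalization was applied. Coordinates and lengths of the members are those of RefSeq.

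From the deposited FPKM, limma 3.58.1 (R 4.3.3; lmFit, eBayes with trend, group only, 2 residual degrees of freedom) fitted log2(FPKM + 1) for the 9741 genes whose mean reached 1 FPKM. The Benjamini-Hochberg adjustment ran over all of them. Fold changes of genes low in FPKM are understated on this scale. The reverse can hold for a short RNA with 0 reads in a library, since 1 read is worth many FPKM there. The log2 differences of Rnu73b, Snord118, Snord13 and Rnu12 were 7.07, -4.62, -4.23 and -2.67, against 2.76, -3.18, -0.03 and 0.49 under voom. Whole reads were recovered from the FPKM steps of each library, for 70.9% of 10161 genes above 0 in all libraries, against 1.09% with wrong steps (tolerance 0.02 reads), and for short single-span genes from the effective length; both are inferences from the values. voom (limma) on the recovered reads was run beside the fit, on 6548 genes, and called 0 of them. The scripts were tested on simulated data. Alternatives were other pseudocounts, filters, scalings, a replicate block, voom and leaving out each library.

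The members, the partner lists and the markers were chosen with earlier results of these data known. The named partners are, per list, the 4 tested genes with the largest absolute log2 difference, plus Dkc1, Tert, Larp7, Hexim1, Rnpc3, Snrnp35, Pop1 and Rpp38; Rnu3a, the relatives of Rpph1, and the short RNAs given by place were named after their values were seen. Likeness used genes whose mean reached 5 FPKM, without unnamed models and small RNA symbols.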

Additional observations from a re-analysis of the deposited data

How the results depend on the processing

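The direction of Rnu11, Terc and Rpph1 was the same in every alternative run. Leaving out 1 library at a time gave log2 differences of 2.36 to 2.64 for Rnu11, -2.15 to -1.48 for Terc, 0.36 to 1.21 for Rpph1 and -6.50 to 1.17 for Rnu12. Rnu11 and Terc were chosen as far apart and did not overlap between the groups. Leaving out 1 library could therefore not turn their sign, and their steady direction adds no support. Quantile normalization gave 2.10 for Rnu11 and 0.28 for Rpph1, and voom gave 0.49 for Rnu12. The sign of Rnu12 turned without PD replicate 2 and under voom, and pseudocounts of 0.1 and 10 gave it -4.31 and -1.13. Rmrp and Rn7sk gave no value under any alternative.

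The counts of all genes called higher and lower were 0 and 0 under voom. Leaving out 1 library gave 0 to 27 genes higher and 0 to 30 lower: 0 and 0 without either DMSO library, 18 and 30 without PD replicate 1, 27 and 26 without PD replicate 2. The lone sample of a group is then assumed to vary like the other group. The replicate numbers do not pair the samples by any label, and same-numbered deviations correlated at 0.0992 over 9741 genes; with the replicate block 2 genes were called higher and 17 lower. In this balanced design the block cannot alter a log2 difference, so the 2.50 of Rnu11 is the same by construction.

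The medians of the partner lists were below 0 and turned sign under some alternatives, for RNase P with MRP under voom alone. Under voom they were 0.26 for the minor spliceosome, 0.00 for 7SK with P-TEFb and 0.04 for RNase P with MRP, and a filter of 5 FPKM gave 0.09 for 7SK and 0.11 for the minor spliceosome. Leaving out 1 library gave -0.55 to 0.07, 0.00 to 0.06 and -0.26 to -0.18 for these lists, -0.31 to 0.10 for telomerase and 0.30 to 0.86 for the other structured RNAs. Of 28 named genes other than members, 15 kept their sign in every alternative. Mepce turned to 0.01 under voom, and Poldip3 to 0.01 with a pseudocount of 10, 0.06 after quantile normalization and 0.00 after median ratio scaling. Leaving out 1 library turned the sign of Snrnp35 (-0.06 to 1.03), Rnpc3 (-0.17 to 0.71), Larp7 (-0.93 to 0.53), Mepce (-0.96 to 0.37), Hexim1 (-0.15 to 0.62), Hexim2 (-0.80 to 0.07), Ccnt1 (-0.90 to 0.41), Pop1 (-0.70 to 0.04), Snord118 (-9.71 to 0.46), Snord13 (-9.24 to 0.78), Poldip3 (-0.60 to 0.59), Parp2 (-0.05 to 0.48) and Ccdc107 (-0.95 to 0.11). Without PD replicate 1 the only PD value of Snord13 was the 0 of PD replicate 2, and its log2 difference was -9.24. Under voom, with all libraries, it was -0.03. The causes of these moves were not tested. Depth limits Rnu12 and the PD side of Terc, each with 10 reads or fewer in the PD libraries.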

Other observations

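Terc shares its 3′ fold and its dyskerin proteins with the H/ACA snoRNAs, which guide pseudouridine formation. Among 27 tested genes of that class, chosen after values had been seen, the median log2 difference was -2.48, and single genes ran from -9.57 to 6.54. Limma called 3 lower in PD and 0 higher, with 6 at an unadjusted p under 0.05, while voom called 0 of 18. Over all 9741 tested genes limma called 0.226% lower, and 561 had an unadjusted p under 0.05. Of the 8863 protein-coding genes among them it called 0. Both PD libraries lay below both DMSO libraries for 8 of the 27 (29.6%) and above for 4 (14.8%), beside 18.3% and 17.5% of all tested genes, and 15 overlapped. Of the 5 with at least 100 reads, all had a difference below 0: Snora75 at -6.15, Snora43 at -2.55, Snora31 at -2.46, Snora3 at -0.54 and Snora16a at -0.24. Groups did not overlap for 3 of these 5, and overlapped for Snora3 and Snora16a. Limma called 0 of the 5, so its calls in this class lay among genes that did not reach 100 recovered reads. A cut on reads summed over all libraries favours genes that are high in the deeper DMSO libraries. Nothing is therefore read from all 5 lying below 0.

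The C/D snoRNAs, which guide ribose methylation, had a median of 0.01 over 65 tested genes and 0.02 over the 21 with at least 100 reads. Limma called as many of them, 3 lower and 0 higher, with 7 at an unadjusted p under 0.05, and voom called 0 of 46. Of the 21 with at least 100 reads limma called 0. Both PD libraries lay below for 8 of the 65 and above for 8 (12.3% each), beside 18.3% and 17.5% of all tested genes. Over all 118 tested short structured RNA genes, limma called 6 lower and 0 higher, with 17 at an unadjusted p under 0.05, and voom called 0 of 85. Among all 9741 tested genes limma called 0.226% lower and 0.0308% higher, and 561 had an unadjusted p under 0.05. Small Cajal body RNAs had a median of -0.87 over 8 tested genes, none of which had 100 reads or more. The difference between these classes was not tested, and depth, which was lower in both PD libraries, moved with the groups; its part in these values was not tested.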
